A study of Mus musculus with 36 samples.

Results

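The 78 genes described here carry symbols of proteins of the mouse mitochondrial ribosome. They were chosen by name: every gene whose symbol starts with Mrpl or Mrps followed by a digit, without the 5 pseudogenes marked -ps, that was listed in all 6 deposited count tables. They make up 78 of the 54838 genes of the sperm table, 49 of them with an Mrpl symbol (large subunit) and 29 with an Mrps symbol (small subunit), and subunits are counted by symbol below. The libraries came from a study of C57BL/6 wildtype male mice (C57BL/6N in the methods) that were given a high-fat diet (HFD, 60% of energy from fat) or a low-fat diet (LFD, 10%) for 2 weeks from 6 weeks of age, and collected at 8 weeks. Cauda sperm from both diets (3 HFD and 3 LFD libraries) had been isolated by swim-up with lysis of somatic cells, and morulae (3 HFD and 3 LFD) came from in vitro fertilization of oocytes of unexposed females with such sperm, followed by 72 h of culture. Round spermatids (6 libraries) came from a density gradient of testis cells of the fed males. Liver, epididymal white adipose tissue (eWAT) and gastrocnemius muscle (6 libraries each) came from chow-fed male offspring of HFD-fed fathers, at an age not given in the sources used here, so these tissues had no direct HFD exposure, and no LFD offspring were analysed here. The names of the round spermatid and tissue columns do not show diet or the glucose tolerance of the offspring, so diet was compared in sperm and morula only, and the libraries of a tissue were taken as 1 group that holds both tolerant and intolerant animals. For 3 of the 6 morula samples the free-text description names the other diet than the title and treatment, which were followed. The methods give 3 mice per diet for round spermatids, and for the other sample types no source used here says whether libraries came from separate animals or pools, so p-values measure the spread between these libraries.

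Mitochondria keep their own ribosomes, which translate the few messenger RNAs of mitochondrial DNA into core subunits of the respiratory chain. The ribosomal RNAs are made inside the organelle, while every protein of the particle is encoded in the nucleus, made in the cytosol and imported. The small subunit holds the decoding site, the large subunit holds the peptidyl transferase centre and the exit tunnel, and initiation, elongation, release and assembly factors work around both. Some members descend from bacterial ribosomal proteins (Mrpl12 and Mrpl10 of the stalk, Mrps12 at the decoding site, Mrpl22 and Mrpl23 near the tunnel), and others, such as Mrpl42 and Mrpl55, have no bacterial counterpart. Mrps18a and Mrps30 carry small-subunit names but sit in the large subunit. Mrps36 also carries a small-subunit name, but is counted in neither subunit when subunits are taken by structure. The choice by symbol leaves out 5 subunit genes with other names, among them Dap3 and Chchd1. The nuclear genome of mature sperm is tightly packed, and transcription from it is largely silent.

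The members lie on many chromosomes, and what their promoters share was read from RefSeq (GRCm38.p6), in windows from 250 bases before to 50 bases after each start; 69 of 78 members matched a window. The letters CCGGAAGT, a consensus for ETS factors, were found on either strand in 12 members (17.4%) and in 5.69% of all 17491 protein-coding genes. The letters AAGATGGC, a YY1 consensus, were also in 12 members (17.4%) against 3.57% of all. The NRF1 core CGCATGCG was in 7 members (10.1%) against 2.77%. Shares were close for GGGCGG (49.3% against 49.2%), CACGTG (7.25% against 8.91%) and TGACGTCA (2.90% against 2.54%), and no member had TATAAA between 45 and 16 bases before the start, against 3.21% of all. The median window held 21 CpG dinucleotides in members and 13 in all genes. A match is a description of these letters and not a binding site, and no factor was measured. Windows of 150 bases before to 10 after the start are printed for the 6 members on which the results below turn, 5′ to 3′ on the strand of the gene, with a matched NRF1 or ETS word in capitals. Mrpl12 (chr11:120484487-120484646, + strand), Mrpl17 (chr7:105811078-105811237, - strand), Mrpl33 (chr5:31613801-31613960, + strand), Mrpl42 (chr10:95501940-95502099, - strand) and Mrps6 (chr16:92058186-92058345, + strand) are among the members with high levels or called differences among the tissues, and Mrpl23 (chr7:142532882-142533041, + strand) was picked by the study for a mutant line.
Mrpl12: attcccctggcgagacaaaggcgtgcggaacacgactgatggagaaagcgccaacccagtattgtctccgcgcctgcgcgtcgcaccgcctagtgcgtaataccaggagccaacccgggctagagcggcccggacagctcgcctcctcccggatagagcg
Mrpl17: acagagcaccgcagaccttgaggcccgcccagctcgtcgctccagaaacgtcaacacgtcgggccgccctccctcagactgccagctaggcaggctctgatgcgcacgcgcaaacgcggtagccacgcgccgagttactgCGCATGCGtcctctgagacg
Mrpl33: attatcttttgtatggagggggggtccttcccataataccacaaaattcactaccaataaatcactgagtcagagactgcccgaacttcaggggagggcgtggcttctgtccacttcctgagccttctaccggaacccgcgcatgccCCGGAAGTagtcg
Mrpl42: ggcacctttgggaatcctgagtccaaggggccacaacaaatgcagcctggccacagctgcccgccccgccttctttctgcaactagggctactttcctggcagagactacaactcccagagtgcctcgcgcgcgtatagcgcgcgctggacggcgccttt
Mrps6: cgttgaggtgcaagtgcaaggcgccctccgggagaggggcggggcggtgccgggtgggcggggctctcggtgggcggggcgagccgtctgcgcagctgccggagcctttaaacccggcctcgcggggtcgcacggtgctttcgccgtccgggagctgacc
Mrpl23: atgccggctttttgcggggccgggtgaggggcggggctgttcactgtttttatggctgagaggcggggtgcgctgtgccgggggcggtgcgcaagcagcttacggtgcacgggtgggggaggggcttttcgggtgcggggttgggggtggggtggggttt

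Capitals appear in the printed stretch of Mrpl17, where they mark the NRF1 core, and of Mrpl33, where they mark the ETS word; the other 4 stretches hold neither word. Many members also stand close to another gene. The start of 23 of 78 members (29.5%) lay within 1000 bases of the start of a protein-coding gene on the other strand, with starts overlapping by at most 300 bases, against 1901 of 21951 protein-coding genes (8.66%). Partners included Mitd1 (66 bases from Mrpl30), Psma2 (75 bases from Mrpl32), Fau (59 bases from Mrpl49) and Sars2, the mitochondrial seryl-tRNA synthetase (172 bases from Mrps12). By RefSeq starts, 2 members faced each other: Mrps11 and Mrpl46 were 42 bases apart on chromosome 7.

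Depth and makeup of the libraries differed by sample type. Total counts were 2560219 to 4062321 in sperm, 20138842 to 31056066 in round spermatids, 11471251 to 12153141 in morula, 2036237 to 2552454 in liver, 1338149 to 4055537 in eWAT and 369772 to 2749920 in gastrocnemius, where 1 library of 369772 counts was the shallowest of all 36. Transcripts of mitochondrial DNA took 78.1 to 84.3% of counts in the HFD sperm libraries and 43.5 to 64.7% in the LFD sperm libraries, about 2.14% in round spermatids, 22.8 to 26.9% in morula, 21.7 to 27.002% in liver, 15.1 to 18.2% in eWAT and 29.8 to 45.5% in gastrocnemius. Levels below are therefore given in nuclear CPM, the counts of a gene in every 1000000 counts of nuclear-encoded genes, or after TMM, edgeR's scaling that sets the bulk of genes equal (TMM-scaled CPM). Single genes of sperm, round spermatids and morula, whose libraries cover whole transcripts, are ranked on nuclear counts scaled by gene length (TPM). Labelled cell types were checked against defining markers: the summed sperm markers (Prm1, Prm2, Odf1, Akap4, Smcp) were at 7521 to 51193 nuclear CPM in sperm, liver markers (Alb among them) at 56349 to 80371 in liver, fat markers (Adipoq among them) at 26712 to 44616 in eWAT, muscle markers (Acta1 among them) at 71707 to 110230 in gastrocnemius, morula markers (Pou5f1, Nanog, Cdx2, Tead4, Dppa5a) at 628 to 769 in morula, and spermatid markers at 2048 to 2674 in round spermatids. The sperm markers were also at 7815 to 10271 in round spermatids, within the range of sperm, so their sum does not separate these cell types. Spermatocyte markers (Sycp1, Sycp3, Dmc1, Spo11, Piwil1) stood at 504 to 610 in round spermatids and at most at 50.5 in sperm. In bulk RNA, fewer cells of a type and less RNA per cell cannot be told apart.

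The summed level of the 78 members, in nuclear CPM, was lowest and most variable in HFD sperm. The HFD sperm libraries stood at 1320, 477 and 859, and the LFD sperm libraries at 1781, 1744 and 1609, so that every HFD library lay below every LFD library. Round spermatids, the precursor cells, were tightly grouped between 1536 and 1603, below the LFD sperm libraries. Morulae were between 2945 and 3230 (HFD) and between 2889 and 2985 (LFD). Liver was between 2310 and 2718, eWAT between 2347 and 3073 and gastrocnemius between 2598 and 3620, and the 3 tissues overlapped. Germ cells and morulae were sequenced with another kit than the tissues, so a sum is best read within a kit. After TMM the order within the tissues changed: liver (2361 ± 142 CPM, SD, n = 6) and gastrocnemius (2347 ± 93.4, n = 6) overlapped, and eWAT (1426 ± 90.2, n = 6) lay below both without overlap. In sperm TMM brought the diets together, with 229 to 407 in HFD and 370 to 426 in LFD.

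**Figure D1:**
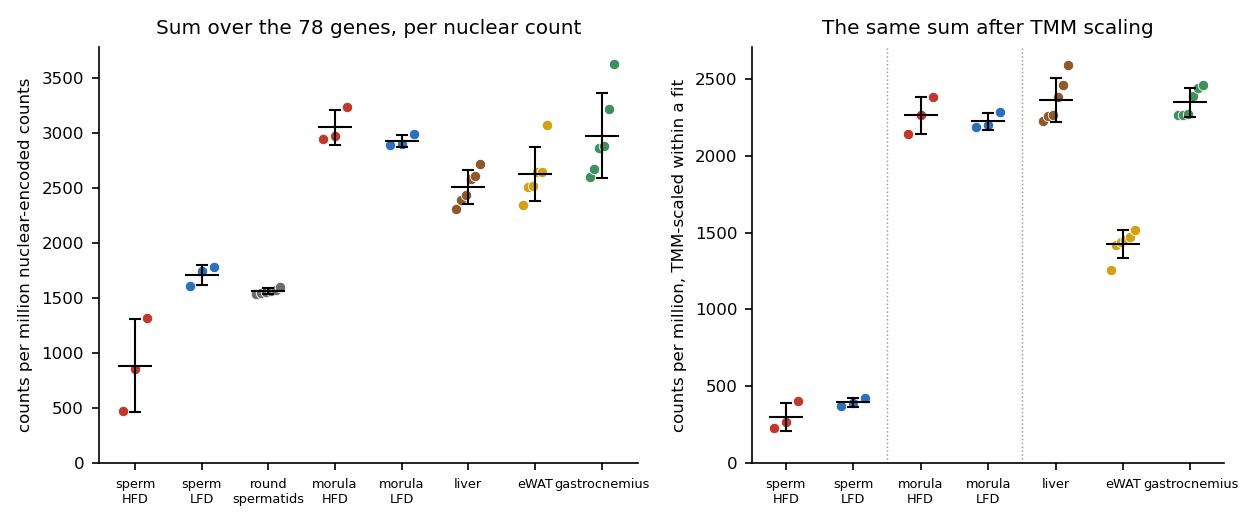
Summed level of the 78 mitochondrial ribosomal protein genes in each library (points), with the mean and SD, by sample type and paternal diet: left, nuclear CPM; right, TMM-scaled CPM, comparable only between the dotted lines. On the left the HFD sperm libraries (477 to 1320) lie below the LFD sperm libraries (1609 to 1781), and the 3 offspring tissues overlap, while on the right eWAT (1256 to 1518) lies below liver and gastrocnemius.

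Few members dominated the sum, and which ones did depended on the sample type. The 5 highest members held 16.7% of the summed level in gastrocnemius and 26.4% in round spermatids, the lowest and highest such shares. In round spermatids Mrpl54 (171 ± 2.02 TPM, SD, n = 6) and Mrpl39 (110 ± 3.96) led, in morula Mrpl21 (207 ± 15.5 TPM, n = 6) and Mrpl18 (137 TPM), in LFD sperm Mrpl52 (101 ± 44.4 TPM, n = 3) and Mrps6 (95.1 ± 27.7), and in HFD sperm Mrpl34 (45.3 ± 29.9 TPM, n = 3) and Mrps6 (42.3 ± 26.8). The leaders of sperm did not differ beyond their spread. Mrpl21 was thus first of 78 in morula, while it stood at 6.198 ± 1.21 TPM and rank 58 in round spermatids. In the 3′-end libraries, where counts do not scale with length, Mrpl12 led liver (173 nuclear CPM), Mrps6 led eWAT (195 ± 56.9, n = 6) and Mrpl33 led gastrocnemius (118). Over the 78 members the order of mean levels was most alike between liver and eWAT (Spearman's rho 0.86) and between liver and gastrocnemius (0.79), was 0.67 between sperm and morula and 0.43 between sperm and round spermatids, and lay between 0.08 and 0.22 for morula against the tissues. These rank correlations are over genes that share a library kit within the tissues and within the germ cells and embryos, and they describe these libraries only.

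**Figure D2:**
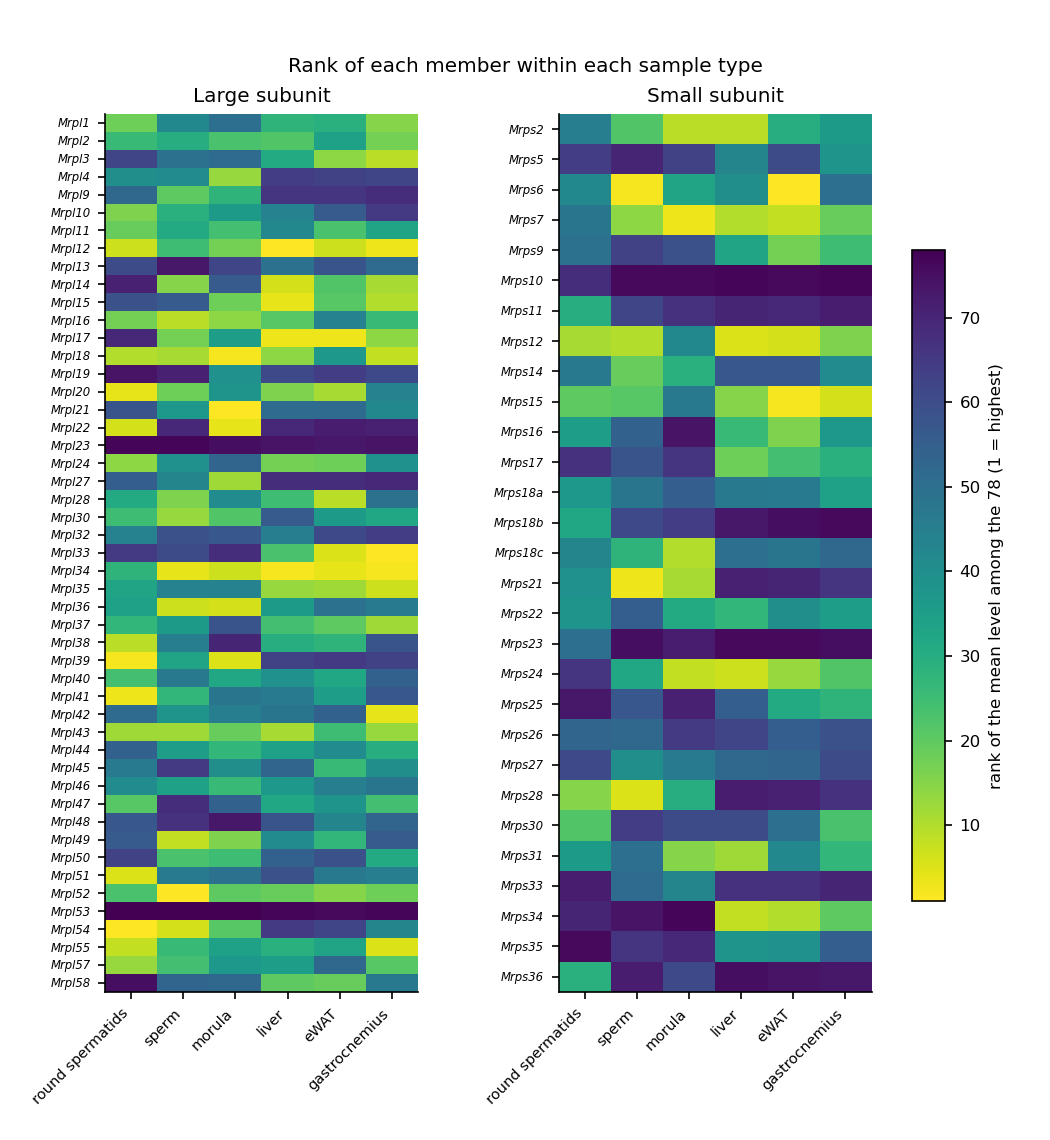
Rank of the mean level of each member (rows; left, large subunit; right, small subunit) within each sample type (columns), from 1, the highest of 78 (yellow), downward (dark). Mrpl21 moves from rank 58 in round spermatids to rank 1 in morula, and Mrps6 from rank 40 in liver to rank 1 in eWAT.

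A small set of members was at or near 0. Mrpl53 had no count in sperm, morula or any tissue library and 1 count in all of round spermatids, and 88% of its 790 exonic bases (chr6:83109040-83109939, GRCm38) overlap exons of Ccdc142os and Gm42688, so its reads may not be assigned to it. How reads over overlapping genes were counted is not given in the sources used here. Mrps34, with 78% of its exonic bases overlapped, and Mrpl53 were the 2 members too low to test in morula. Mrps10 (chr17:47368887-47381417) had no count in liver, eWAT or gastrocnemius and Mrps23 none in eWAT, though both were tested in morula. Mrpl23, a tunnel protein and the gene of a mutant line of the study, ranked between 73 and 77 of 78 in every sample type, with 6 counts in all sperm libraries, 158 in round spermatids, 353 in morula, 5 in liver, 23 in eWAT and 8 in gastrocnemius. Its pseudogene copy Mrpl23-ps1 collected 69 counts in morula and 10 in round spermatids, so a level of Mrpl23 read from these tables is uncertain where reads of the copies cannot be told apart. Mrps21 stood at 88.8 ± 13.2 TPM in LFD sperm (rank 3) and 33.3 ± 32.9 in HFD sperm (rank 4, with 1 of 3 libraries at 0). It was at 77.5 TPM in morula, but had only 10 counts in liver, 33 in eWAT and 71 in gastrocnemius.

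In sperm the question was whether 2 weeks of HFD altered these transcripts in the father's own gametes. No member passed the test, and neither did any other gene. Of 78 members, 51 (36 large, 15 small) had enough counts to test and 27 did not. edgeR's quasi-likelihood test with Benjamini-Hochberg adjustment over 8643 genes called 0 members, against 0% of all genes. The members leaned lower on HFD: their median log2 fold change was -0.56 (-0.69 in the large subunit, -0.35 in the small), against -0.07 over all genes tested, -0.26 over 54 cytosolic ribosomal proteins and -0.31 over 65 nuclear-encoded subunits of oxidative phosphorylation. Of the 51, 34 had a negative and 17 a positive estimate, where the median over all genes was also below 0. Members are not replicates of a diet, and the split of signs was not tested. At an unadjusted p under 0.05, 3 members were lower (background 4.63% of all genes) and 0 higher (background 8.38%). Every HFD library was below every LFD library for 8 of 51 members, or 15.7%, where 12.2% of all genes did so, a share near the background, and above for 0, where 8.21% of all genes did so. DESeq2 also called 0 members, while it called 272 genes higher and 23 lower over the whole table.

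The lowest estimates belonged to large-subunit proteins. Mrpl21 had counts of 0, 0 and 0 in the HFD libraries and 38, 13 and 29 in the LFD libraries. With 3 counts put in place of 0 over the HFD group, it was 10.3-fold lower on HFD. This value leaves out the spread between libraries and is not a bound. Mrpl21 was not called (adjusted p = 0.231 by edgeR's quasi-likelihood test). Mrpl35, a core protein of the large subunit, was at 0, 1.87 and 0.70 TMM-scaled CPM on HFD and at 5.37, 10.3 and 8.74 on LFD, a log2 fold change of -3.21 ± 1.07 (SE; edgeR adjusted p = 0.257) that rests on 5 counts in the HFD group. Mrpl30 was at 5.24, 4.36 and 7.35 CPM on HFD and 12.6, 19.7 and 19.8 on LFD (-1.60 ± 0.64, edgeR adjusted p = 0.308). The groups did not overlap for any of these genes, nor for Mrpl46 (-2.20), Mrpl14 (-1.58), Mrps31 (-1.55), Mrpl36 (-1.53) and Mrpl11 (-0.73).

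At the other end, Mrpl12, the stalk protein, was at 14.4, 1.25 and 6.65 CPM on HFD and 1.99, 2.52 and 1.71 on LFD (1.82 ± 0.96, edgeR adjusted p = 0.453). Mrps2, a small-subunit protein, was at 35.3, 0 and 5.6002 CPM on HFD and 3.83, 8.02 and 2.35 on LFD. Its estimate of 1.51 ± 1.12 came from 1 library: without the HFD library of 2994295 counts it was -0.67 on the log2 scale. Mrps27 was at 1.19 and Mrpl28 at 0.57 on the log2 scale, and the groups overlapped for all 4. The value for Mrpl28 was -0.90 when the HFD library with 3679276 counts was left out. Mrps21 was at 7.85, 0 and 4.20 CPM on HFD and 6.44, 7.10 and 6.61 on LFD (-0.74 ± 1.00). Mrps5 (5 counts on HFD, 53 on LFD) and Mrpl23, the gene of a mutant line (1 count on HFD, 5 on LFD), were too low to test.

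Other measures of the same sperm libraries stand beside these values. Members were represented by 368 to 764 counts per HFD library and 1735 to 2577 per LFD library. The sums of mt-Rnr1 and mt-Rnr2, the ribosomal RNAs of the mitochondrial ribosome, were 724385 to 787123 in every 1000000 total counts on HFD and 405901 to 601036 on LFD. In nuclear CPM, the 5 erythroid markers stood at 594 to 1591 on HFD and 57.4 to 557 on LFD, the 5 leukocyte markers at 148 to 252 and 89.1 to 115, the 5 sperm markers at 25395 to 51193 and 7521 to 26949, and the 6 markers of epididymal epithelium at 7766 to 13146 and 8227 to 44201, with Spint4 at 0 in both groups and Lcn8 at 0 on HFD. The diets did not overlap for the ribosomal RNAs, erythroid and leukocyte markers, and overlapped for sperm and epididymal markers. Their part in the members' values was not tested. Scaling decided the calls: with library totals in place of TMM, 15 members (29.4%) were called lower, where 38.8% of all genes were, and 0 higher (0.0116% of all genes), the median over members was -2.22 and the median over all genes -1.84. On the nuclear scale, with a pseudocount of 1, the medians were -0.93 over 54 members and -0.65 over 8950 genes.

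**Figure D3:**
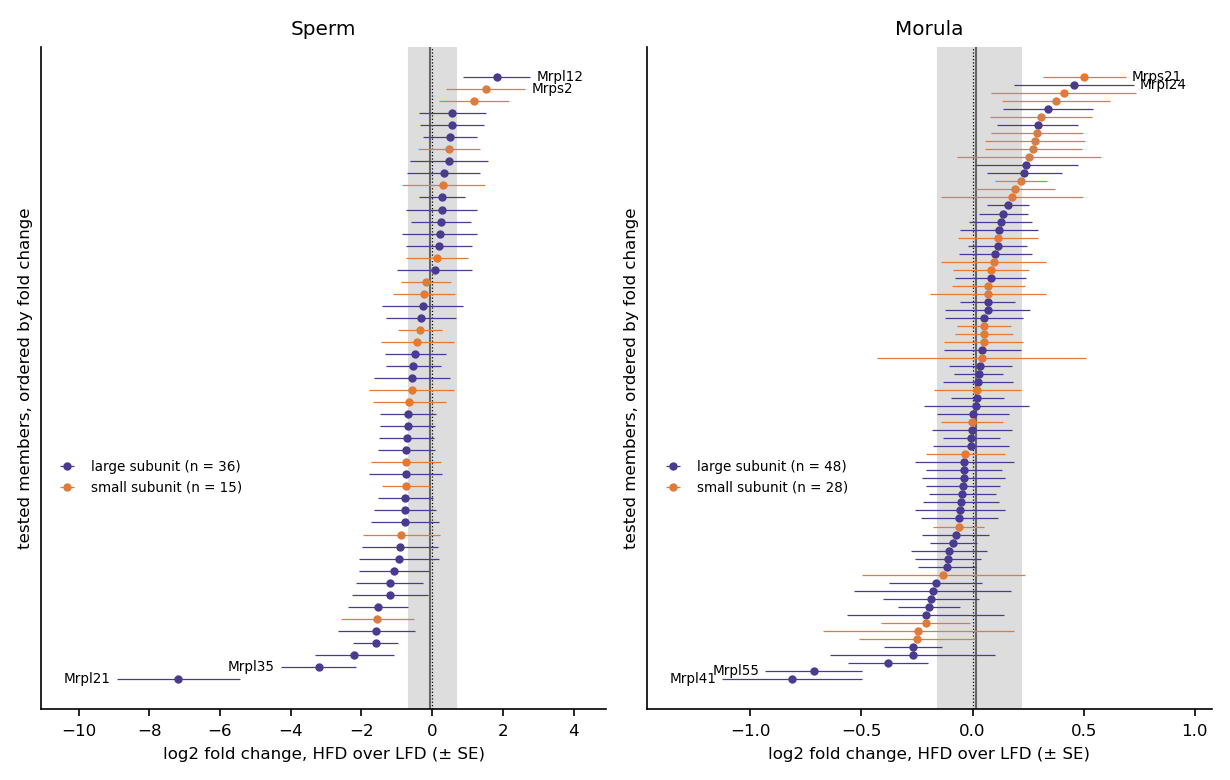
Log2 fold change, HFD over LFD, with its SE (x axis) of each tested member in sperm (51) and morula (76), ordered by value; grey bands span the middle 50% of all genes tested, the solid line is their median and the dotted line is 0. Most sperm members lie left of 0 with wide errors, the fitted value of Mrpl21 rests on 0 counts in HFD and is no bound, and the morula members lie around 0 on a narrower axis.

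Morulae sired by the sperm of HFD males were compared with those of LFD males, at higher depth and with less spread. No member passed the test. Of 78 members 76 were tested, and edgeR's quasi-likelihood test with Benjamini-Hochberg adjustment over 13447 genes called 0, as over all genes (0%), and DESeq2 called 0 members and, over all genes, 5 higher and 13 lower. The median log2 fold change was 0.03 over members and 0.01 over all genes. Positive estimates were found for 22 of 48 large-subunit genes (median -0.01) and 21 of 28 small-subunit genes (median 0.08), where the median over all genes was also above 0. Members are not replicates of a diet, and the split of signs was not tested. At an unadjusted p under 0.05, 2 members were lower (background 2.83%) and 1 higher (background 3.55%). Groups did not overlap for 2 members below (background 6.18%) and 2 above (background 5.94%).

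None of the members without overlap passed the test. Mrpl55, a protein of the large subunit peculiar to mitochondria, was at 8.18, 9.12 and 8.68 CPM on HFD and 13.8, 12.8 and 16.011 on LFD (-0.71 ± 0.22, edgeR adjusted p = 0.687). Mrpl41 was at 6.16, 3.72 and 3.90 CPM on HFD and 7.02, 8.60 and 8.58 on LFD (-0.81 ± 0.31, edgeR adjusted p = 0.713). Mrps21 was at 18.1, 21.0 and 23.7 CPM on HFD and 14.6, 16.4 and 13.3 on LFD (0.50 ± 0.19, edgeR adjusted p = 0.697), and Mrpl48 was higher without overlap (0.34 ± 0.20). Mrpl27 (-0.38), Mrpl24 (0.45), Mrps10 (0.41) and Mrps26 (0.38) followed, with groups that overlapped. Mrpl23 was at 3.21, 5.49 and 4.86 CPM on HFD and 5.69, 3.53 and 7.11 on LFD (-0.27 ± 0.37), and Mrps5 stood at 0.29 ± 0.21. Mrpl12, highest of the fold changes in sperm, was at 30.2, 31.6 and 33.0 CPM on HFD and 32.2, 29.2 and 31.2 on LFD (0.04 ± 0.14), and no member had all HFD libraries on one side in sperm and on the other in morula.

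The 3 offspring tissues share a kit, and here members did differ. Between liver and eWAT, 45 of 68 tested members were higher in liver and 2 lower by edgeR's quasi-likelihood test (adjusted p under 0.05), that is 66.2% higher where 28.9% of all 10851 genes were, and 2.94% lower where 32.7% were. Between eWAT and gastrocnemius, 45 members were lower in eWAT (26.3% of all genes) and 1 higher (41.1%). Liver and gastrocnemius were split, with 16 members higher in liver (34.9% of all genes) and 20 lower (31.5%). Median log2 fold changes were 0.73, -0.85 and -0.10 over members in these 3 comparisons, and -0.07, 0.35 and 0.06 over all genes. Both subunits took part: between liver and eWAT, 32 of 46 large-subunit and 13 of 22 small-subunit genes were higher in liver. Between liver and gastrocnemius, nuclear subunits of oxidative phosphorylation stood apart from the members, with 57 of 69 lower in liver and a median of -1.03, while the cytosolic ribosomal proteins had medians of -0.08, -0.07 and -0.04 in the comparisons of liver with gastrocnemius, liver with eWAT and eWAT with gastrocnemius.

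**Figure D4:**
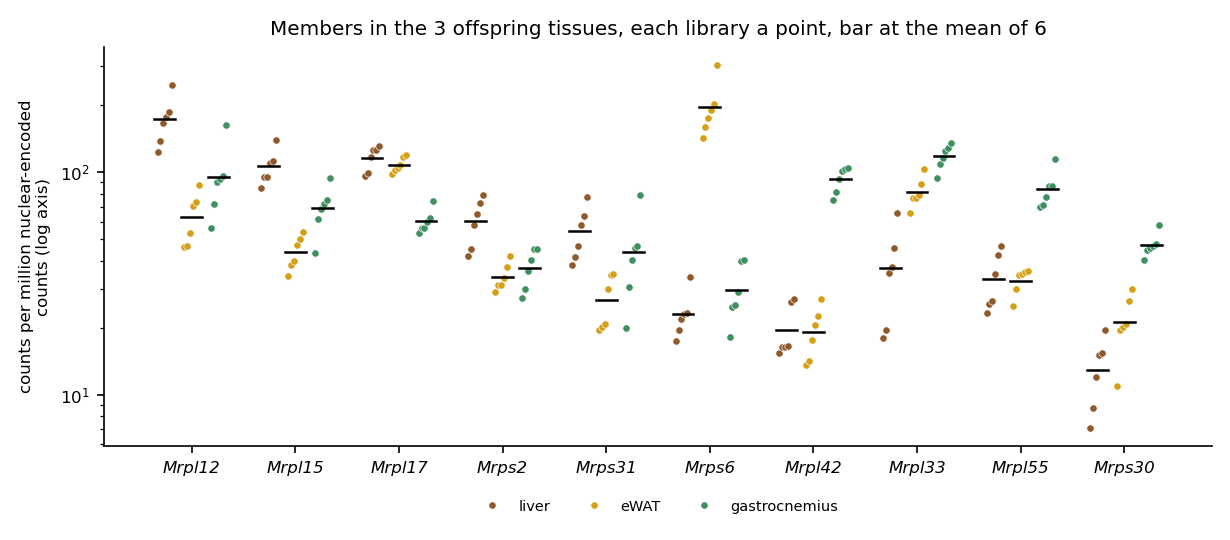
Level of 10 named members (nuclear CPM, without TMM, log axis) in each library of liver, eWAT and gastrocnemius (points, n = 6 each; bars are means). On this scale every eWAT library lies above every other for Mrps6, and every gastrocnemius library above every other for Mrpl42.

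Of the members higher in liver, Mrpl12 and Mrpl15 had the largest differences from eWAT. Mrpl12, the stalk protein, ranged from 113 (median 157) to 246 CPM in liver, from 24.6 (median 34.4) to 43.3 in eWAT and from 48.8 (median 78.2) to 110 in gastrocnemius. It was higher in liver than in eWAT (log2 fold change 2.27 ± 0.22, edgeR adjusted p = 3.3e-09) and than in gastrocnemius (1.17 ± 0.22, edgeR adjusted p = 5e-05), and the groups did not overlap. Mrpl15 ranged from 77.9 to 136 CPM in liver, 19.5 to 27.9 in eWAT and 37.8 to 63.8 in gastrocnemius (2.07 and 0.90 over the other tissues, both called). Further members higher in liver than in eWAT were Mrps31 (1.77), Mrps2 (1.61), Mrpl14 (1.59), Mrpl18 (1.57), Mrpl16 (1.48) and Mrpl43 (1.40). Mrpl17 (1.19), Mrpl20 (1.08), Mrps12 of the decoding site (0.92), Mrpl38 (0.89) and Mrpl10, the base of the stalk (0.87), were higher in liver than in gastrocnemius.

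Mrps6 was lower in liver than in eWAT, opposite to the 45 members called higher. It is a small-subunit protein, at chr16:92058270-92112227 (GRCm38), of which 20% of the exonic bases overlap exons of Slc5a3 and Gm49711, and reads of these genes may be shared. Slc5a3 was also highest in eWAT, with 1486 summed counts against 61 in liver and 49 in gastrocnemius. Mrps6 had 3066, 237 and 177, and the part of shared reads was not tested. Mrps6 ranged from 16.98 (median 20.6) to 30.6 CPM in liver, from 78.1 (median 96.2) to 173 in eWAT and from 15.8 (median 22.8) to 34.3 in gastrocnemius, so that every eWAT library lay above every other. The log2 fold change of liver over eWAT was -2.30 ± 0.22 (edgeR adjusted p = 2.5e-09) and of eWAT over gastrocnemius 2.21 ± 0.22 (edgeR adjusted p = 1.1e-08). Mrps15 was the other member lower in liver than in eWAT (-0.49 ± 0.16, edgeR adjusted p = 0.011), and lost its call when libraries were scaled on nuclear-encoded genes (-0.35, edgeR adjusted p = 0.059). The eWAT libraries also held more transcripts of other cells: in nuclear CPM, leukocyte markers stood at 857 to 1578 in eWAT and at most at 141 in liver and 99.1 in gastrocnemius, and erythroid markers at 4988 to 17211 in eWAT and at most at 672 in liver and 1097 in gastrocnemius. Their part in the members' values was not tested.

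Members highest in muscle included Mrpl42, a large-subunit protein with no bacterial counterpart. Mrpl42 ranged from 64.1 (median 70.9) to 88.5 CPM in gastrocnemius, from 15.02 (median 15.8) to 24.9 in liver and from 7.46 (median 10.3) to 15.4 in eWAT, and gastrocnemius did not overlap the others (liver over gastrocnemius -2.005 ± 0.20, edgeR adjusted p = 4.1e-09; eWAT over gastrocnemius -2.79 ± 0.20, edgeR adjusted p = 2.4e-11). Mrpl33 ranged from 80.5 to 113 CPM in gastrocnemius, 17.6 to 60.4 in liver and 35.04 to 51.3 in eWAT (-1.44 and -1.08, both called). Mrpl54 (-1.64), Mrps30 (-1.63), Mrps25 (-1.10), Mrpl55 (-1.08), Mrpl50 (-0.97) and Mrpl51 (-0.95) were lower in liver than in muscle, and Mrpl57 (-1.91), Mrpl55 (-1.89), Mrpl18 (-1.83), Mrpl50 (-1.80) and Mrps5 (-1.71) were lower in eWAT than in muscle. Of the exonic bases of Mrps25, 69.8% overlap exons of Nr2c2, so reads of these genes may be shared or not assigned. Mrps16 and Mrpl11 were not called in any tissue comparison. The release-factor-like Mrpl58 was higher in liver than in eWAT (0.72, turning to -0.25 with library totals) and than in gastrocnemius (0.73). On the scale of nuclear counts, the highest tissue mean of 72 members with at least 60 counts was in gastrocnemius for 40, in eWAT for 17 and in liver for 15, and the median ratio of highest to lowest tissue was 1.75. The ratio reached 12.1 for Mrps28, 11.4 for Mrps21, 8.43 for Mrps6 and 4.85 for Mrpl42. For Mrps28 and Mrps21 it rests on liver means of only 0.83 and 0.95 nuclear CPM, and Mrps21 was too low to test in the tissues.

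The direction of the median between eWAT and the other tissues depended on the scaling. With library totals, 9 members were higher (13.2%, against 12.8% of all genes) and 21 lower (30.9% against 65.1%) in liver than in eWAT, and the median over members was -0.22, where the median over all genes fell to -1.01. Between eWAT and gastrocnemius 23 were higher (33.8% against 68.3%) and 11 lower (16.2% against 11.1%) in eWAT, with medians of 0.14 and 1.33. Between liver and gastrocnemius the split was 17 higher (35.6% of all genes) and 19 lower (30.5%), close to the TMM values. Under library totals Mrps6 remained called in both comparisons (-3.23 and 3.19), as did Mrpl12 and Mrpl15 between liver and eWAT (1.31 and 1.12), while Mrpl12 between eWAT and gastrocnemius was at -0.10 and no longer called.

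The balance between the subunits was described by the ratio of the summed large-subunit to the summed small-subunit level. The sums run over 49 large-subunit and 29 small-subunit members, so equal levels per gene would already give a ratio above 1. The ratio of sums was 1.89, 2.28 and 2.01 in HFD sperm and 1.82, 2.12 and 2.21 in LFD sperm, which overlapped. With the mean per gene in place of the sum, the ratio was 0.812 to 1.09 in eWAT and 1.08 to 1.35 in sperm. It was 1.33 to 1.57 in morula, 1.22 to 1.43 in liver, at most 1.51 in gastrocnemius and 1.86 to 1.98 in round spermatids. Levels were in TPM for sperm, round spermatids and morula and in nuclear CPM for the tissues, so ratios are best read within a kit. Among the libraries in TPM, round spermatids had the highest ratios of sums, 3.14 to 3.35. Without Mrpl54 and Mrpl39 they were at 2.51 to 2.65, against 2.33 to 2.49 in LFD morula and 2.10 to 2.26 in HFD morula. In the tissues, with the other kit and scale, this value was 1.98 to 2.48 in gastrocnemius and 2.04 to 2.40 in liver. Morulae lay between 2.25 and 2.46 on HFD and between 2.50 and 2.65 on LFD, without overlap in this ratio of sums. In the ratio of medians over members the diets overlapped, at 1.92 to 2.23 on HFD and 1.99 to 2.47 on LFD. A difference in the ratio by diet was not tested. Liver was between 2.06 and 2.41, gastrocnemius between 2.03 and 2.55 and eWAT between 1.37 and 1.84, below every other tissue library. Mrps6 alone held 13.7 to 28.6% of the small-subunit sum in eWAT, against 2.57 to 3.80% in liver and 2.12 to 4.85% in gastrocnemius, and without it the ratio was 1.81 to 2.23 in eWAT, 2.14 to 2.48 in liver and 2.08 to 2.64 in gastrocnemius, which overlapped. With the median over members in place of the sum the orders turned: the ratio was 1.33 in eWAT, above 1.18 in liver and 1.16 in gastrocnemius, and 1.89 in round spermatids, below 2.03 in HFD and 2.26 in LFD morula.

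**Figure D5:**
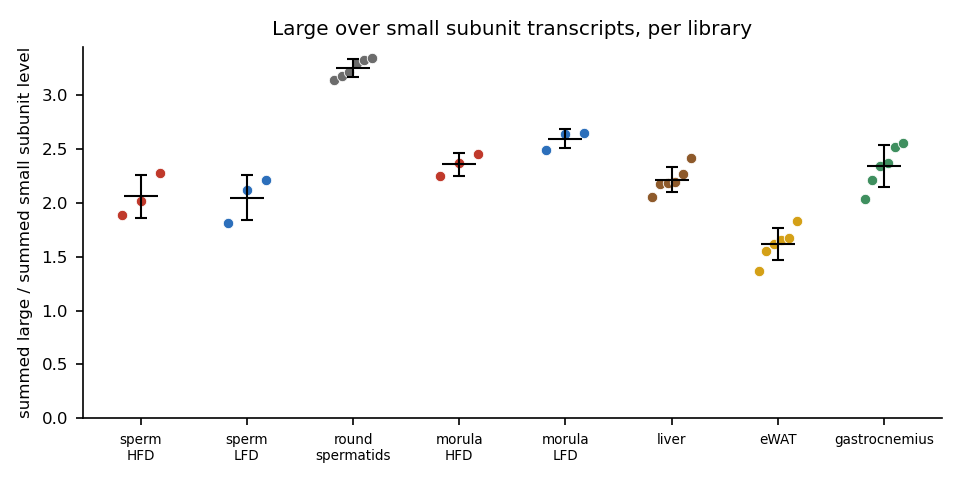
Ratio of the summed level of large-subunit to small-subunit members in each library (points; no unit), by sample type and diet, with the mean and SD. The sums run over 49 large-subunit and 29 small-subunit members, so equal levels per gene would already give a ratio above 1. Levels are in TPM for sperm, round spermatids and morula and in nuclear CPM for the tissues, so ratios are best read within a kit. Round spermatids (3.14 to 3.35) lie above sperm and morula, and eWAT (1.37 to 1.84) lies below the other 2 tissues.

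The other genes of mitochondrial translation were read from lists of factors. Of 15 translation factors matched, 0 of 9 tested in sperm and 0 of 14 tested in morula were called by edgeR's quasi-likelihood test, as over all genes (0%). At an unadjusted p under 0.05 these were 1 and 2. Over all genes, 4.63% were lower and 8.38% higher in sperm, and 2.83% lower and 3.55% higher in morula. Among 11 tested in the tissues, 7 were higher and 0 lower in liver than in eWAT, where 28.9% and 32.7% of all genes were. In eWAT 0 were higher and 8 lower than in gastrocnemius, where 41.1% and 26.3% of all genes were. In liver 2 were higher and 5 lower than in gastrocnemius, where 34.9% and 31.5% of all genes were. The elongation factor Gfm1 had means of 31.5 ± 9.27 CPM in liver, 7.47 ± 2.11 in eWAT and 72.8 ± 15.7 in gastrocnemius (SD, n = 6), and the elongation factor Tsfm of 1.92 ± 1.67, 1.00 ± 0.55 and 11.9 ± 6.34. The initiation factor Mtif3 was highest in liver (39.4 ± 10.2 CPM, against 12.3 ± 2.54 in eWAT and 18.5 ± 4.73 in gastrocnemius). Of 18 tested assembly factors, 10 were higher and 1 lower in liver than in eWAT, and 1 higher and 7 lower in eWAT than in gastrocnemius. In liver 2 were higher and 4 lower than in gastrocnemius. The shares over all genes are those given above for the translation factors. The assembly factor Malsu1, which binds the large subunit, was lower in liver than in muscle (-1.97 ± 0.19), and the small-subunit protein Chchd1 was lower in eWAT than in muscle (-1.98 ± 0.18). Both ribosomal RNAs of mitochondrial DNA, mt-Rnr1 and mt-Rnr2, were higher in liver than in eWAT (1.55 for each) and lower in eWAT than in gastrocnemius (-1.20 and -1.65), and were not called between liver and gastrocnemius.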

How the data were processed

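The authors trimmed reads (BBDuk), aligned them to GRCm38 (STAR) and counted them per gene (featureCounts), and deposited raw counts, as whole numbers, in 6 tables of 6 libraries each. Sperm, round spermatid and morula libraries were made with a Nextera kit (75-base reads; for round spermatids the methods add removal of ribosomal RNA), and tissue libraries with a QuantSeq 3′-end kit (50-base reads). The kit differs with the sample type, so a kit effect and a sample-type effect cannot be told apart. The study tested with NOISeq, which was not run here.

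Counts were filtered (filterByExpr, minimum count 10), scaled by TMM and tested with edgeR 4.0.16's two-sided quasi-likelihood test in R 4.3.3, with Benjamini-Hochberg adjustment over all genes tested and a threshold of 0.05. Diet was fitted within sperm and within morula, and the 3 tissues in 1 fit. DESeq2 1.42.0 and limma 3.58.1 were alternatives, beside other scalings, no filter and leaving out libraries. Scripts were tested on simulated data. Of 100 genes above the median level that were given a log2 change of 1, 6 were called in sperm and 93 in morula. At a log2 change of 3 these were 78 and 100. A gene that is not called in sperm may therefore still differ. Positions, overlaps and starts came from the GRCm38 annotation. Libraries within a table had equal counts in at most 3.38% of genes. In the column names, 2 pairs of sperm libraries share a number, which no source used here calls a replicate number.

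The members and lists were chosen with earlier results of these data known. Named genes were, per comparison, at most the 8 called members with the largest rise and 8 with the largest fall, the 4 highest and 4 lowest tested by diet, a fixed set (Mrpl23, Mrps5, Mrps21, Mrpl12, Mrpl10, Mrpl11, Mrps12, Mrps18a, Mrps18b, Mrps18c, Mrpl58, Mrps16), the 5 highest and those at 0 per sample type, and those with the largest tissue ratio. The members whose diet groups did not overlap, and translation factors and list genes, were named after their values were seen. Fixed-set members with no value in the text (Mrps18a, Mrps18b, Mrps18c and, for diet, Mrps12, Mrps16 and Mrpl58) were not called in morula and were too low to test in sperm.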

Additional observations from a re-analysis of the deposited data

Results flagged for a closer look

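In the groups of 6 libraries, 7 of 119 member values stood apart from the other 5 of their group by Dixon's test, where chance gives about 1 in 20. Levels are in nuclear CPM. In the shallowest gastrocnemius library, of 369772 counts, Mrpl12 was at 164 (others 56.1 to 96.2), Mrps18a at 74.5 (others 23.4 to 42.1) and Mrps25 at 69.5 (others 36.0 to 39.7). In eWAT, Mrpl54 was at 5.40 in the library of 1744891 counts (others 13.6 to 17.8), Mrpl58 at 82.2 in the library of 3512177 counts (others 32.6 to 44.0) and Mrps15 at 170.0 in the library of 1338149 counts (others 104 to 119). In liver, Mrps6 was at 33.8 in the library of 2225011 counts (others 17.4 to 23.3).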

How the results depend on the processing

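Over all alternatives, 35 of 39 counts of called members stayed within 1.5 times the reported count, and so did all 12 with 1 library left out. These counts leave out direction. Between eWAT and gastrocnemius, 45 members lower and 1 higher in eWAT became 11 lower and 23 higher with library totals. At an unadjusted p under 0.05, 3 members were called in sperm and 3 in morula. With library totals as the scaling, 15 were called in sperm and 30 between liver and eWAT, the medians turned to -0.22 between liver and eWAT and 0.14 between eWAT and gastrocnemius, and single genes turned: in sperm Mrps2 (-0.24), Mrps27 (-0.54), Mrpl28 (-1.29) and Mrpl10 (-1.60); between liver and eWAT Mrps18a (-0.43), Mrps18c (-0.41), Mrpl58 (-0.25) and Mrps16 (-0.60); between eWAT and gastrocnemius Mrpl10 (0.88), Mrpl11 (0.60), Mrps12 (0.84), Mrps18c (0.089) and Mrps16 (0.83). Scaling on nuclear-encoded genes turned Mrpl11 between liver and eWAT (0.044) and Mrpl58 between eWAT and gastrocnemius (-0.11), which limma-voom (-0.0054) and a fit of the 2 tissues alone (-0.067) also turned. Without the filter Mrpl10 turned in sperm (-0.066) and between eWAT and gastrocnemius (0.011), and limma-voom turned Mrps2 (-0.012) and Mrpl10 (-0.53) in sperm. Of these genes, Mrps18c and Mrpl58 between liver and eWAT and Mrps18c between eWAT and gastrocnemius had been called. Single named genes also gained a call in 12 other cases and lost it in 9 without turning. The cause was not tested. Deviations of sperm libraries with an equal number in the column name correlated at 0.10 and -0.14, and those with unequal numbers at -0.23 to 0.27. These correlations cannot decide whether the numbers pair the libraries. With the number as block, 0 members were called, the median was -0.74, and Mrps2 (-0.0020), Mrps27 (-0.13) and Mrpl10 (-1.13) turned. No paired analysis was made in morula, where the column names of the diets share no number and cannot be matched to the numbered titles. None was made in the tissues, whose column names show no group. Leaving out 1 library at a time gave medians of -0.71 to -0.37 in sperm and 0.004 to 0.07 in morula, with 0 members called. It moved single fold changes in sperm over -0.67 to 2.15 (Mrps2), -0.90 to 1.26 (Mrpl28) and -0.91 to 0.63 (Mrpl10), and in morula over -0.0067 to 0.064 (Mrpl12), -0.23 to 0.24 (Mrpl10), -0.044 to 0.27 (Mrps12), -0.00077 to 0.12 (Mrps18a), -0.14 to 0.11 (Mrps18c) and -0.39 to 0.034 (Mrps16). Without the gastrocnemius library of 369772 counts, an alternative chosen after seeing the data, 43 members were lower and 2 higher in eWAT than in gastrocnemius.

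Mean summed levels in every 1000000 total counts were 165 (HFD) and 738 (LFD) in sperm, 1529 in round spermatids, 2274 and 2201 in HFD and LFD morula, 1901 in liver, 2184 in eWAT and 1849 in gastrocnemius. With Mrps18a and Mrps30 counted in the large subunit and Mrps36 left out, the mean subunit ratio was 4.04 in round spermatids, 2.50 and 2.75 in HFD and LFD morula, 2.36 in liver and 2.70 in gastrocnemius. The ratio of the medians over members was 1.79 in LFD sperm, 1.89 in round spermatids, 2.03 and 2.26 in HFD and LFD morula, 1.18 in liver, 1.33 in eWAT and 1.16 in gastrocnemius. Too few counts to test were found for 27 members in sperm, 2 in morula and 10 in the tissues.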
